A study of Rattus norvegicus with 13 samples.

Results

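The RT1 genes are the major histocompatibility complex (MHC) genes of the rat. They were described here in rat heart muscle (left ventricle) through every non-control array probe whose gene name begins with RT1-, together with the probe for Cd74. The rule gave 57 probes, printed in 97 spots, for 45 gene names, out of 30367 probes in 58717 spots on the array. Cd74 and names beginning with RT1-B, RT1-D or RT1-H were taken as class II, with 12 probes for 10 names, and all other names as class I, with 45 probes for 35 names. A name of the older form Rt1.aa lies outside the rule and was not counted.

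The study compared male WT rats with male rats labelled ADBR3 overexpressing, all aged 45 weeks. Total RNA of the left ventricle was labelled with 1 dye, Cy3, and hybridized to Agilent arrays. The 13 arrays, 6 WT and 7 ADBR3, stand for 4 WT rats (called WT 1, 3, 4 and 6 after their heart numbers) and 5 ADBR3 rats (ADBR3 1, 3, 5, 6 and 7). In each group hearts 1 and 2 are separate labelings of the RNA of 1 rat and were averaged, and WT heart 5 and ADBR3 heart 4 are repeat hybridizations whose partner is not named, so they stayed out of the comparison. The receptor in question, the product of Adrb3, binds catecholamines; how it was overexpressed, and the rat strain, are not given in the sources used here.

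MHC class I molecules sit on nearly all nucleated cells and present peptides from inside the cell to CD8 T cells. MHC class II molecules sit mainly on macrophages, dendritic cells and B cells and present peptides from engulfed material to CD4 T cells, and Cd74, the invariant chain, guides them to the compartment where peptides are loaded. The RT1 genes lie in arrays of similar copies, their number and sequence differ between rat strains, and both classes are known to be raised by interferon gamma. In the heart, class I transcripts come from most cell types, whereas class II transcripts come mostly from resident macrophages and dendritic cells.

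The probes are 60-base oligos, and near-identical copies decide how far a probe speaks for 1 gene. Of the 41 probes bright enough to be tested, 15 shared a run of at least 20 bases with another probe of the array. Coordinates below are those of build rn4 in the array files, and each line is the oligo 5′ to 3′. The first 3 are shown because they were among the class I probes with the smallest spread and because they share 1 run of 26 bases, in capitals. They lie at chr20:1660276-1660335 (plus strand), chr20:3510942-3511001 (minus strand) and chr20:2795080-2795139 (plus strand).
RT1-M6-1 A_64_P003255: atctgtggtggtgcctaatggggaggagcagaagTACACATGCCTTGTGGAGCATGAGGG
RT1-CE5 A_64_P090475: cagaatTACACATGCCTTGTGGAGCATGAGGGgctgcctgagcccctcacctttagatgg
RT1-S2 A_64_P057222: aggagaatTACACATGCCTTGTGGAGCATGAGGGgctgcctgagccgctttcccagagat

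The next pair, for RT1-A1 at chr20:5059134-5059193 and RT1-CE11 at chr20_random:133569-133628 (both plus strand), is shown because the oligos begin at the same transcript position, base 925, and differ at 7 bases, in capitals. In both, the same rats stood apart from the others, as described below.
RT1-A1 A_64_P032913: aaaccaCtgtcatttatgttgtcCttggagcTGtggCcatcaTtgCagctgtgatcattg
RT1-CE11 A_64_P091038: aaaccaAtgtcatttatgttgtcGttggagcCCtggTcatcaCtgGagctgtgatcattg

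The last 4 oligos are those at which 2 rats lay clearly above the other 7 (RT1-CE3 and RT1-CE15) or clearly below them (RT1-CE10 and RT1-CE12), and none of them shared a run of 20 bases with another probe. They lie at chr20:3554679-3554738 (minus strand), chr20_random:57976-58035 (minus strand), chr20:3469045-3469104 (plus strand) and chr20_random:148097-148156 (plus strand). They were picked for display after their values were seen.
RT1-CE3 A_64_P116954: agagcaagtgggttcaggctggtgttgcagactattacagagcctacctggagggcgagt
RT1-CE15 A_64_P132069: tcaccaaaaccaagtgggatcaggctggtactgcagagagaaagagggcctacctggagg
RT1-CE10 A_44_P389019: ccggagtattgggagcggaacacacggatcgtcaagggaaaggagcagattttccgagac
RT1-CE12 A_64_P120108: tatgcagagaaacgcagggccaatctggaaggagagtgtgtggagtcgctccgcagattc

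Levels are log2 of the processed signal after subtracting, array by array, log2 of the 75th percentile of all non-control spots, so a level of 0 is that percentile. It ranged from 760.4 to 908.7 between arrays, 55.2% to 67.8% of spots were well above background, and 0 spots were saturated. WT heart 2 (55.2%) and WT heart 6 (58.7%) had the smallest shares. The probe for rat Adrb3 was not a check of the labels: its signal exceeded background on 0 of 6 WT arrays and 1 of 7 ADBR3 arrays. Markers of cardiomyocytes were bright, with a summed level of 11.4 to 11.7 in WT and 11.5 to 11.7 in ADBR3 rats. The labels name separate rats, and the p-values measure the spread between these rats only.

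Of the 57 probes, 41 were tested, each with signal well above background in 4 or more of the 9 rats. They were 32 of class I (26 names) and 9 of class II (7 names), and 38 of them were above it in all 9 rats. None of them passed through 1 group alone (0 probes). The 16 untested probes lay at levels between -7.46 and -4.19, and 10 of them were above background on 0 of 13 arrays. Among these dim probes were RT1-Ba, the alpha chain of the RT1-B class II molecule, RT1-DOa, RT1-Ha, RT1-CE6, RT1-M2, RT1-M4, RT1-M5, RT1-M10-1, RT1-M1-2, RT1-M1-4, RT1-T24-2 and both probes of RT1-M1-5. A further dim probe belongs to RT1-M6-1 and another pair to RT1-T18, names that also have a bright probe, so those names rest on 1 probe each.

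All 41 tested probes were lower in ADBR3 than in WT rats, and 0 were higher. Over all 17587 tested probes 53.5% were lower, with a median difference of -0.01 on the log2 scale. The median difference was -0.31 for class I probes (range -0.55 to -0.05) and -0.26 for class II probes (range -0.48 to -0.07), the latter -0.13 without ADBR3 1. In limma's test with Benjamini-Hochberg adjustment over all probes, 0 RT1 or Cd74 probes passed 0.05, against 0.00569% of all probes (1 of 17587), and the smallest adjusted p of a member was 0.186. At an unadjusted limma p under 0.05, 11 members were lower, 10 of class I and 1 of class II, against 6.08% of all probes. A difference below -0.25 was found at 29 members, 24 of class I and 5 of class II, against 8.3% of all probes. Many of these probes read similar transcripts in the same rats, so their common direction is not 41 separate observations.

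**Figure D1:**
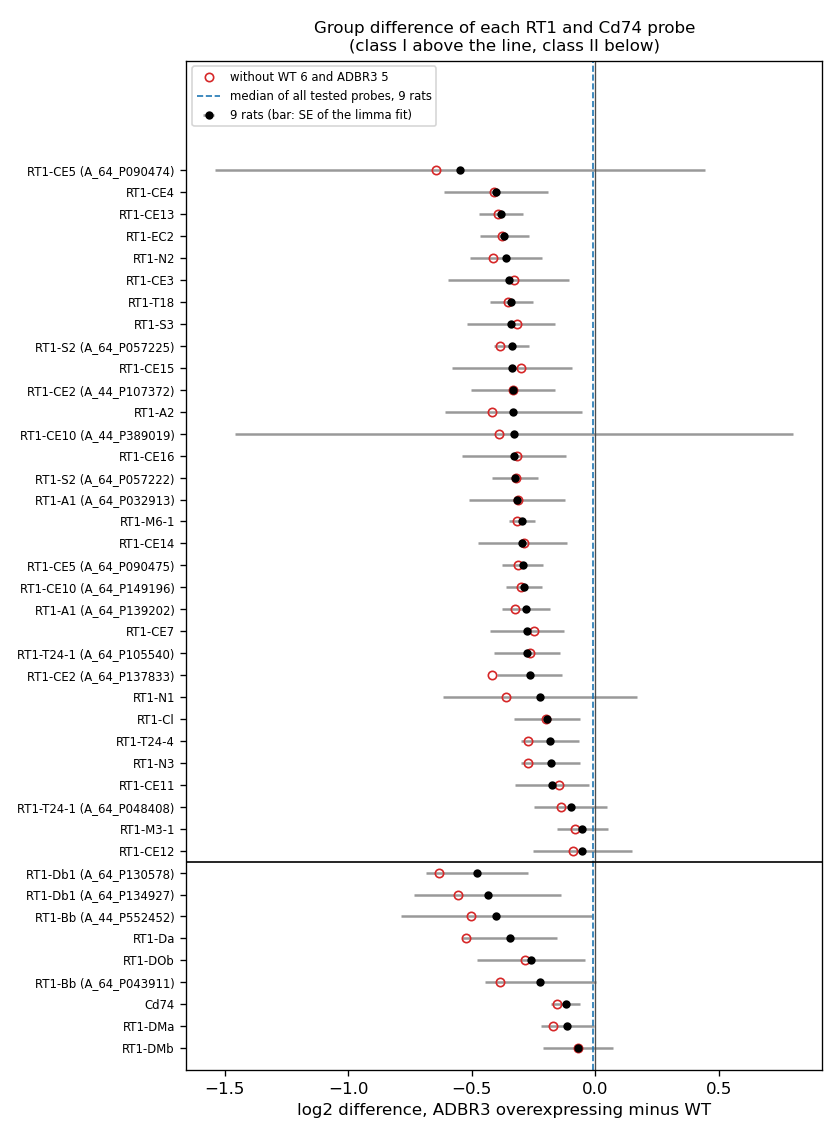
Group difference of each tested probe (x axis: log2 difference, ADBR3 minus WT; y axis: probe, named by gene and, where a gene has several, by probe). Filled points are the fit over 9 rats with its SE, open circles the fit without WT 6 and ADBR3 5, and the dashed line the median of all tested probes; every filled point lies left of 0, and the widest SE bars belong to RT1-CE10 A_44_P389019 and RT1-CE5 A_64_P090474.

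The groups were fully apart, with every ADBR3 rat below every WT rat, at 3 member probes, all of class I, against 2.21% of all probes. The first was RT1-M6-1 probe A_64_P003255, named for a gene of the RT1-M region of class I genes outside the classical loci. Its level was 2.73, 2.72, 2.61 and 2.66 in WT 1, 3, 4 and 6 and 2.42, 2.44, 2.42, 2.32 and 2.31 in ADBR3 1, 3, 5, 6 and 7. The lowest WT rat thus stood above the highest ADBR3 rat, and the group means were 2.68 ± 0.0570 (SD, n = 4) and 2.38 ± 0.0627 (SD, n = 5). The difference of -0.30 (SE 0.0519), 1.23-fold lower, had a limma adjusted p of 0.186. The sequence of this oligo recurs in part in the probes of RT1-CE5 and RT1-S2, and the second RT1-M6-1 probe, A_64_P003254, was above background on 0 of 13 arrays, so the assignment of this signal to RT1-M6-1 is uncertain.

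RT1-S2, a class I gene of the same chromosome, had a second fully separated probe, A_64_P057225 (chr20:2794952-2795011). It read 1.11, 1.13, 0.94 and 1.02 (0.0864 SD, n = 4) in WT 1, 3, 4 and 6, against 0.72, 0.75, 0.87, 0.63 and 0.58 (0.112 SD, n = 5) in ADBR3 1, 3, 5, 6 and 7. The difference was -0.34 (SE 0.0708; limma adjusted p = 0.264). The other RT1-S2 probe, A_64_P057222, which carries the shared run, differed by -0.33 (SE 0.0941; limma adjusted p = 0.396). It read 3.26, 3.23, 3.12 and 3.46 in the WT rats and 2.95, 2.97, 3.18, 2.80 and 2.82 in the ADBR3 rats in the same order, so ADBR3 5 alone reached above WT 4.

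The third separated probe was RT1-CE10 A_64_P149196, which has no rn4 position in the files. Class I genes named RT1-CE belong to the cluster on the other side of the class II genes from the classical RT1-A genes. The level was 0.80, 0.84, 0.81 and 0.86 in WT 1, 3, 4 and 6, and 0.57, 0.70, 0.63, 0.40 and 0.38 in ADBR3 1, 3, 5, 6 and 7. The WT rats differed little (SD 0.0248), the ADBR3 rats more (SD 0.142), and the difference was -0.29 (SE 0.0741; limma adjusted p = 0.327).

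RT1-CE13 (A_64_P090593, chr20_random:90224-90283) had levels of 0.48, 0.56, 0.40 and 0.68 in the WT rats and of 0.11, 0.14, 0.41, 0.05 and 0.04 in the ADBR3 rats. ADBR3 5 lay among the WT rats and the other 4 ADBR3 rats below them all. The difference was -0.38 (SE 0.0894; limma adjusted p = 0.313).

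RT1-T18, a class I gene outside the classical RT1-A loci, showed the same arrangement at its bright probe A_64_P102807 (chr20:2757529-2757588). WT 1, 3, 4 and 6 read 1.91, 2.00, 1.84 and 2.09, and ADBR3 1, 3, 5, 6 and 7 read 1.59, 1.68, 1.85, 1.496 and 1.487. Only ADBR3 5 reached the WT range, and the difference was -0.34 (SE 0.0878; limma adjusted p = 0.327).

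RT1-A1, a classical class I gene that presents peptides to CD8 T cells, was bright on all arrays. At its probe A_64_P139202 (chr20:5059904-5059963) WT 1, 3, 4 and 6 read 4.85, 4.87, 4.65 and 4.91, and ADBR3 1, 3, 5, 6 and 7 read 4.53, 4.44, 4.84, 4.45 and 4.42. ADBR3 5 overlapped the WT rats and the rest did not. The difference of -0.28 (SE 0.0984) had a limma adjusted p of 0.466.

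The remaining class I probes at an unadjusted limma p under 0.05 were RT1-EC2 at -0.37 (SE 0.0988, adjusted p = 0.338), RT1-CE5 A_64_P090475 at -0.29 (SE 0.0835, adjusted p = 0.387) and RT1-N2 at -0.36 (SE 0.146, adjusted p = 0.523). RT1-EC2 shares a run of at least 20 bases with a probe of RT1-CE2, and RT1-CE5 the run shown above. The other tested class I loci were RT1-A2, RT1-CE2, RT1-CE3, RT1-CE4, RT1-CE7, RT1-CE11, RT1-CE12, RT1-CE14, RT1-CE15, RT1-CE16, RT1-Cl, RT1-M3-1, RT1-N1, RT1-N3, RT1-S3, RT1-T24-1 and RT1-T24-4. Among them RT1-CE4 had a difference of -0.40 (SE 0.210, limma adjusted p = 0.578), and RT1-M3-1, the counterpart of a mouse gene that presents formylated peptides, one of -0.05 (SE 0.103, limma adjusted p = 0.892). No name with several tested probes, of which there were 8, had differences more than 0.3 apart.

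Cd74 (A_44_P549494) was the steadiest class II member. Its level was 4.43, 4.32, 4.26 and 4.27 in WT 1, 3, 4 and 6 and 4.13, 4.28, 4.26, 4.22 and 4.11 in ADBR3 1, 3, 5, 6 and 7. The groups overlapped, and the difference was -0.12 (SE 0.0593; limma adjusted p = 0.563).

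The peptide-presenting class II chains had larger differences than Cd74 and a wider spread between the ADBR3 rats. RT1-Db1, a beta chain of the RT1-D molecule, read 0.61, 0.90, 0.67 and 0.71 in WT 1, 3, 4 and 6 at probe A_64_P130578 (chr20:4672665-4672724). In ADBR3 1, 3, 5, 6 and 7 it read -0.29, 0.04, 0.84, 0.53 and 0.10. The SD was 0.125 between WT rats (n = 4) and 0.443 between ADBR3 rats (n = 5), with ADBR3 1, 3, 6 and 7 below every WT rat and ADBR3 5 among them. The difference was -0.48 (SE 0.206), 1.40-fold lower (limma adjusted p = 0.537). The second RT1-Db1 probe, A_64_P134927, differed by -0.44 (SE 0.297; limma adjusted p = 0.65), and by -0.68 without ADBR3 5 and -0.28 without ADBR3 1.

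RT1-Da (A_44_P991532, chr20:4641104-4641163) is the alpha chain that pairs with RT1-Db1. Its level was 0.30, 0.60, 0.27 and 0.16 in the WT rats and -0.43, -0.35, 0.46, 0.32 and -0.07 in the ADBR3 rats, in the order above. ADBR3 1, 3 and 7 lay below all WT rats, as at RT1-Db1, while ADBR3 5 and 6 lay within the WT range. The difference was -0.35 (SE 0.194; limma adjusted p = 0.599).

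RT1-Bb, the beta chain of the RT1-B molecule, had a pair of probes that went apart in single rats. Probe A_44_P552452 (chr20:4730533-4730583) read 0.51, 0.66, 0.57 and 1.40 in WT 1, 3, 4 and 6 and -0.37, -0.14, 1.61, 0.65 and 0.18 in ADBR3 1, 3, 5, 6 and 7. Probe A_64_P043911 (chr20:4732187-4732246) read 0.29, 0.45, 0.30 and -0.51 in the same WT rats and -0.46, -0.13, -0.29, 0.41 and 0.01 in the same ADBR3 rats. WT 6 and ADBR3 5 were thus the highest rats at the first probe, while at the second WT 6 was the lowest of all 9 and ADBR3 5 the lowest but 2. The differences were -0.40 (SE 0.385, limma adjusted p = 0.757) and -0.22 (SE 0.226, limma adjusted p = 0.772), neither beyond the spread. With single rats left out the first was -0.71 without ADBR3 5, -0.20 without WT 6 and -0.21 without ADBR3 1.

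Other class II members edit the peptide load. RT1-DMb, a chain of the DM molecule that exchanges peptides, read 0.57, 0.57, 0.69 and 1.04 in WT 1, 3, 4 and 6 and 0.46, 0.53, 1.07, 0.58 and 0.58 in ADBR3 1, 3, 5, 6 and 7, a difference of -0.07 (SE 0.142, limma adjusted p = 0.896). RT1-DMa, its partner, differed by -0.11 (SE 0.106, limma adjusted p = 0.749). RT1-DOb, a chain of the DO molecule that modulates DM, was dim, and in WT 1, WT 6, ADBR3 1 and ADBR3 6 it was not well above background. It read -5.005, -5.017, -5.10 and -4.93 in the WT rats and -6.11, -4.89, -5.07, -5.23 and -5.07 in the ADBR3 rats, where ADBR3 1 lay below the rest, and it had a difference of -0.26 (SE 0.219, limma adjusted p = 0.724). Without ADBR3 1 that difference was -0.05, and it was -0.04 in the authors' values and with normexp and quantile normalization.

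**Figure D2:**
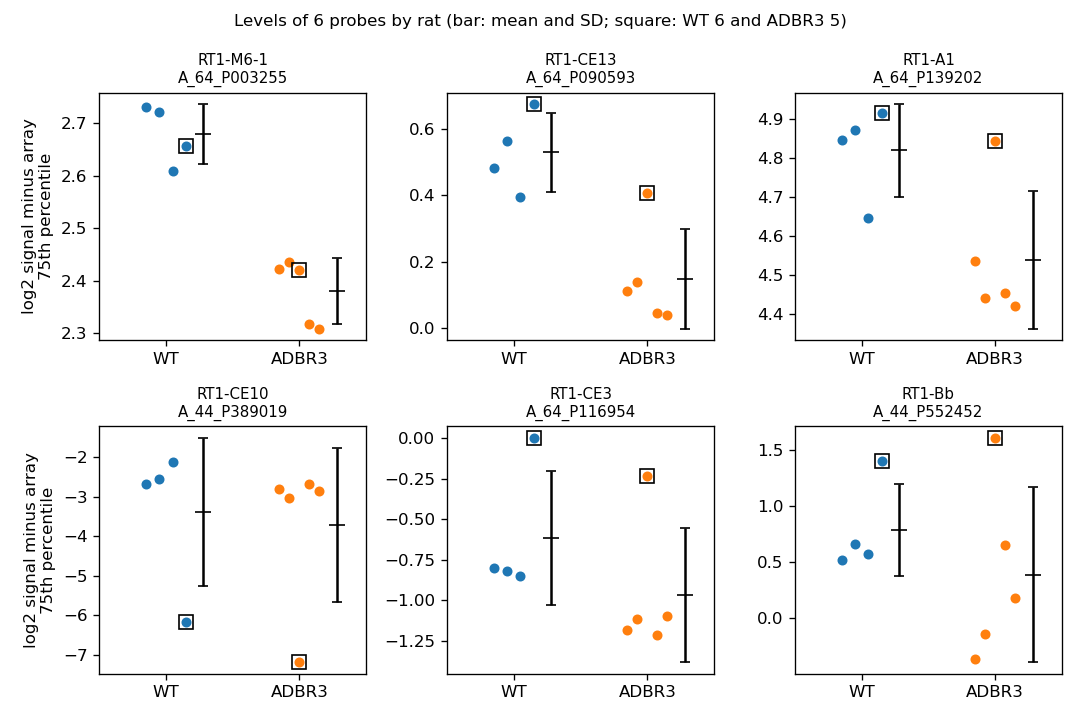
Levels of 6 probes in each rat (y axis: log2 signal minus the 75th percentile of the array, with a scale of its own in each panel; x axis: group). Points are rats, bars the mean and SD over 4 WT and 5 ADBR3 rats, and squares mark WT 6 and ADBR3 5; the groups are apart at RT1-M6-1, ADBR3 5 lies with the WT rats at RT1-CE13 and RT1-A1, and in the lower row both marked rats lie together, away from the other 7.

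WT 6 and ADBR3 5 stood apart from the other 7 rats, together and in the same direction, at many RT1 probes. Both lay outside the range of the other 7 at 23 of 41 member probes (56.1%), above it at 15 and below it at 8. The same held at 934 of 17546 other probes (5.32%). It held at 20 of 32 class I and 3 of 9 class II probes. A gap of over 0.3 between these rats and the nearest of the others was found at 13 member and 27 other probes. The labels give no reason to set these rats apart, and the examples that follow were chosen after their values were seen.

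The widest gaps were downward. RT1-CE10 probe A_44_P389019 read -2.68, -2.56, -2.11 and -6.17 in WT 1, 3, 4 and 6 and -2.80, -3.03, -7.19, -2.69 and -2.84 in ADBR3 1, 3, 5, 6 and 7. In WT 6 and ADBR3 5 it was not well above background, and in the other 7 rats it was. The other RT1-CE10 probe, described above, had no such gap, so the same gene name gave both pictures.

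RT1-CE5 probe A_64_P090474 (chr20:3510680-3510739) repeated this, with -3.07, -2.68, -3.19 and -6.33 in the WT rats and -3.46, -3.21, -7.32, -3.88 and -3.95 in the ADBR3 rats. It too was not well above background in WT 6 and ADBR3 5 alone, and the other RT1-CE5 probe was bright in both. RT1-N1 (A_64_P139208) was lower in these rats without reaching background, at -2.13, -1.93, -2.13 and -3.58 in the WT rats and -2.23, -2.21, -3.63, -2.77 and -2.50 in the ADBR3 rats. RT1-A2 (A_44_P296155), a classical class I name beside RT1-A1, read 1.87, 1.97, 1.76 and 0.80 in the WT rats and 1.497, 1.478, 0.55, 1.44 and 1.38 in the ADBR3 rats. RT1-CE12 was the fifth such probe, with -2.42, -2.54, -2.48 and -3.19 in the WT rats and -2.51, -2.52, -3.27, -2.69 and -2.58 in the ADBR3 rats.

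Upward gaps were more frequent. RT1-CE3 (A_64_P116954) read -0.80, -0.82, -0.85 and 0.003 in WT 1, 3, 4 and 6 and -1.18, -1.12, -0.23, -1.21 and -1.10 in ADBR3 1, 3, 5, 6 and 7. Within each set of rats the ADBR3 values lay below the WT values: the 4 other ADBR3 rats below the 3 other WT rats, and ADBR3 5 below WT 6. RT1-CE15 (A_64_P132069) read -2.20, -2.38, -2.16 and -1.43 in the WT rats and -2.42, -2.62, -1.70, -2.69 and -2.48 in the ADBR3 rats, with the same order. RT1-CE16 (A_44_P867246) read 2.93, 2.91, 2.79 and 3.56 in the WT rats and 2.60, 2.56, 3.36, 2.55 and 2.53 in the ADBR3 rats.

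RT1-A1 shows how far this depended on the oligo. At A_64_P032913, whose sequence stands beside that of RT1-CE11 above, the level was 3.08, 3.03, 2.90 and 3.62 in WT 1, 3, 4 and 6 and 2.63, 2.75, 3.42, 2.71 and 2.68 in ADBR3 1, 3, 5, 6 and 7. Both rats lay above the other 7 by 0.339, whereas at A_64_P139202 of the same gene there was no such gap. RT1-CE11, with 7 different bases, placed the same rats at the top with a smaller gap of 0.276. RT1-CE14 (A_64_P013072), which shares a run of at least 20 bases with the first RT1-A1 oligo, read 2.04, 2.01, 1.88 and 2.55 in the WT rats and 1.71, 1.71, 2.37, 1.71 and 1.63 in the ADBR3 rats.

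RT1-CE2 (A_44_P107372), with 3.26, 3.22, 3.09 and 3.71 in the WT rats and 2.93, 2.82, 3.498, 2.86 and 2.82 in the ADBR3 rats, also had both rats on top, by 0.239. Its second probe, A_64_P137833, did not. Among class II probes the first RT1-Bb probe had the widest gap, 0.740, and RT1-DMb one of 0.347. RT1-Db1 A_64_P134927 had a gap of 0.336, reading 0.96, 1.21, 0.97 and 1.55 in the WT rats and 0.10, 0.43, 1.72, 0.89 and 0.52 in the ADBR3 rats, while RT1-Db1 A_64_P130578, RT1-Da and Cd74 had none.

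**Figure D3:**
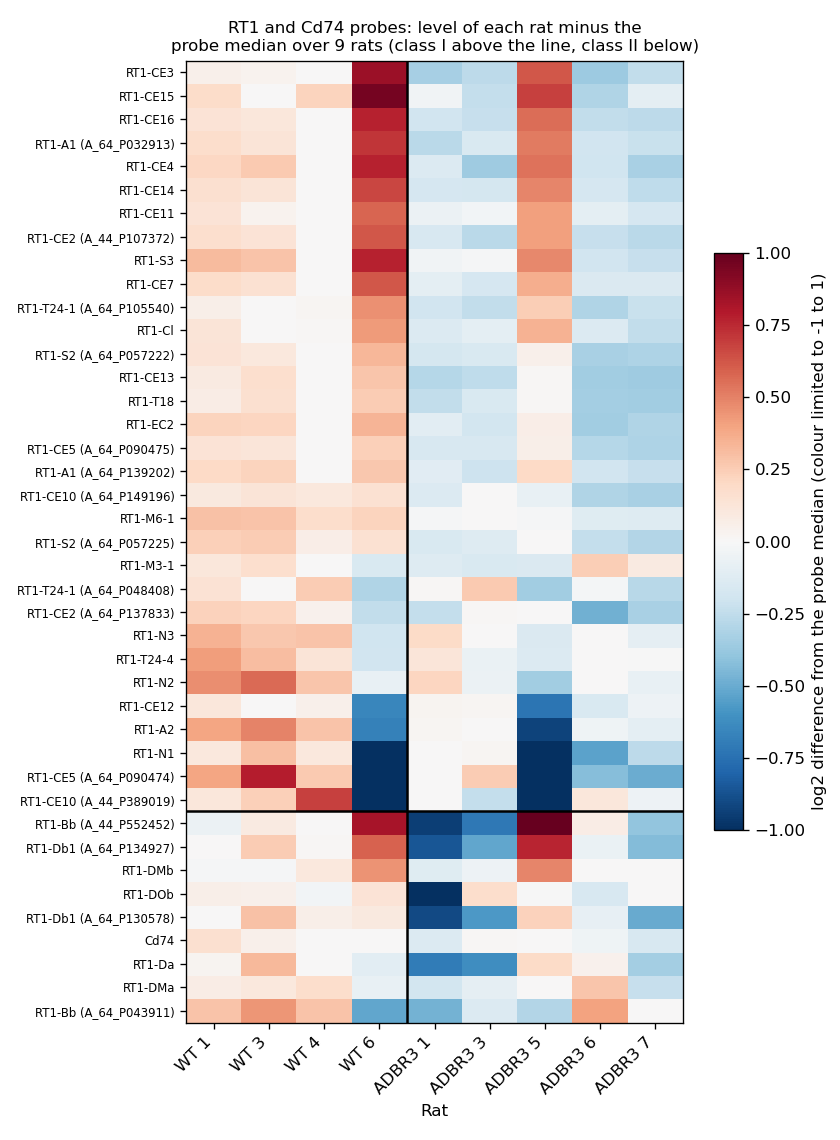
Level of each rat minus the median of the probe over 9 rats (colour, log2, limited to -1 to 1; columns: rats, WT left of the line; rows: 41 tested probes, class I above the line and class II below). WT 6 and ADBR3 5 share red and blue rows that the other rats lack, and the remaining ADBR3 columns are mostly bluer than the remaining WT columns.

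The deviation of WT 6 from the median of the other WT rats and that of ADBR3 5 from the median of the other ADBR3 rats were alike across the 41 probes, with Pearson's r of 0.971 and Spearman's rho of 0.909. Over all tested probes Pearson's r was 0.0921. These are descriptions across probes that share rats, arrays and in part sequence, and RT1-CE10 and RT1-CE5 lie far from the rest in them. In the same way the SD of the log2 difference over member probes was 0.259 between the arrays of WT 6 and ADBR3 5, and 0.903 to 0.996 between WT 6 and the other WT arrays. The repeat hybridizations, WT heart 5 and ADBR3 heart 4, read -2.15 and -2.99 at RT1-CE10 A_44_P389019, with the larger set of rats.

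**Figure D4:**
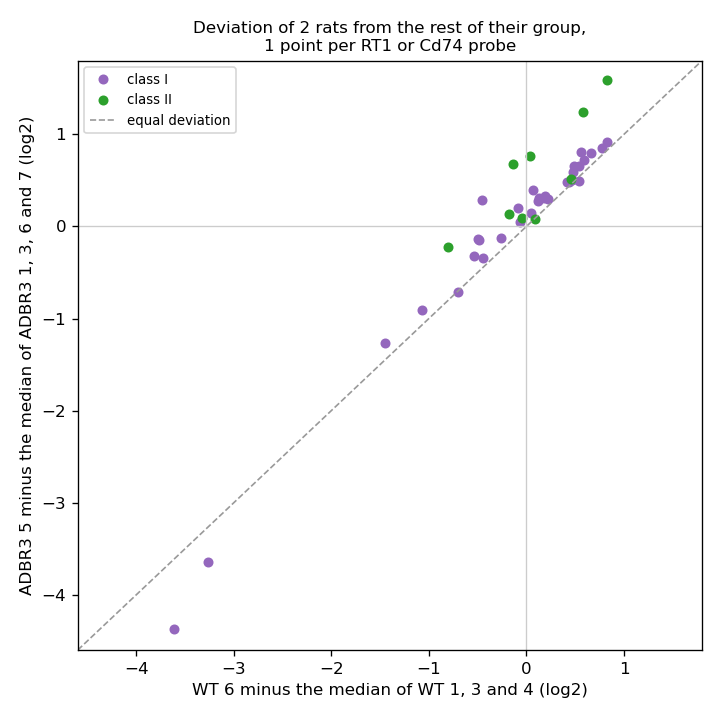
Deviation of WT 6 from the median of WT 1, 3 and 4 (x axis, log2) against that of ADBR3 5 from the median of ADBR3 1, 3, 6 and 7 (y axis, log2), 1 point per tested RT1 or Cd74 probe, with the dashed line of equal deviation. The points follow the line from RT1-CE10 A_44_P389019 and RT1-CE5 A_64_P090474 at the lower left to RT1-Bb A_44_P552452 at the upper right.

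Because these rats belong to different groups, the group comparison was repeated without them, a choice made after seeing the data. They stood apart at these same probes, so leaving them out lowers the spread within groups at many members. At RT1-CE3 the SE fell from 0.246 to 0.0575 while the difference went from -0.35 to -0.33. The counts below are thus partly fixed by the choice, and the shares of all probes are not a like yardstick for them. Again 41 probes were lower and 0 higher, against 51.3% of all probes that were lower, with a median difference of -0.32 for class I and -0.39 for class II. At an unadjusted limma p under 0.05 there were 31 member probes, 28 of class I and 3 of class II, against 3.98% of all probes that were lower. After adjustment 0 members passed, as did 0 of 17587 probes, and the smallest adjusted limma p of a member was 0.532. The groups were fully apart, ADBR3 lower, at 31 members, 29 of class I and 2 of class II, against 4.15% of all probes. A difference below -0.25 was found at 33 members, against 8.04% of all probes. The class II probes fully apart were both RT1-Db1 probes, with differences of -0.63 and -0.56.

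In this comparison RT1-CE3 differed by -0.33, RT1-A2 by -0.42 and RT1-CE13 by -0.40, each with a limma adjusted p of 0.532. Over the alternatives run, their limma adjusted p ranged from 0.531 to 0.993, from 0.532 to 0.997 and from 0.186 to 0.993. RT1-CE12 (-0.09), RT1-M3-1 (-0.08) and the RT1-T24-1 probe A_64_P048408 (-0.14) did not separate the groups. With ADBR3 5 set against WT 6 directly, 1 rat against 1 and so without a test, ADBR3 5 was lower at 28 of 32 class I probes, with a median of -0.21, and at 2 of 9 class II probes, with a median of 0.13.

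The class medians show both patterns. The median level over class I probes was 0.53, 0.52, 0.34 and 0.68 in WT 1, 3, 4 and 6 and 0.21, 0.14, 0.48, 0.14 and 0.10 in ADBR3 1, 3, 5, 6 and 7, so ADBR3 5 alone overlapped the WT rats. Over class II probes it was 0.51, 0.60, 0.57 and 0.71 in the WT rats and -0.37, -0.13, 0.84, 0.53 and 0.10 in the ADBR3 rats, where ADBR3 5 stood above every WT rat and ADBR3 6 within their range.

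Arrays of both groups shared some slides and scan days. Within slide 1 (WT hearts 1, 2 and 6 against ADBR3 heart 1) the median difference was -0.36 for class I and -0.65 for class II. Within slide 3 (WT heart 4 against ADBR3 heart 7) it was -0.30 and -0.34, and within slide 4 (WT heart 5 against ADBR3 hearts 4, 5 and 6) -0.17 and -0.18. On scan day 1 it was -0.30 and -0.23, and on scan day 2 -0.23 and -0.50. The scan day values left out the repeat hybridizations, but slide 4 included them, and WT heart 5 was its only WT array. The partner of WT heart 5 is not named. At member probes WT hearts 4 and 5 differed with an SD of 0.0775, and WT hearts 1 and 2, labelings of 1 rat, with 0.103. Slides 3 and 4 may thus rest on the same WT rat and cannot be read as separate observations. Of 41 probes, 32, 39 and 34 were lower in ADBR3 on those slides and 40 and 41 on those days. The share of all probes that were lower was not computed within slides or days, so these counts have no background to be read against. WT 6 was on slide 1, scan day 1, and ADBR3 5 on slide 4, scan day 1, so the rats that stood apart did not share a slide.

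Genes that work with the RT1 molecules were read 1 probe per gene. Among 14 genes of class I peptide supply and loading, 12 were lower and 2 higher, with a median difference of -0.18. At an unadjusted limma p under 0.05 there were 5, all lower, against 6.08% of all probes that were lower. These were Psmb9 at -0.31 (limma adjusted p = 0.313) and Psmb8 at -0.30 (adjusted p = 0.501), subunits of the immunoproteasome, Calr at -0.44 (adjusted p = 0.5), a chaperone of class I assembly, Tapbp at -0.20 (adjusted p = 0.504), tapasin, and B2m at -0.19 (adjusted p = 0.513), the light chain of class I molecules. The peptide transporter subunit Tap1 differed by -0.21 (limma adjusted p = 0.551).

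The brightest gene of that list, the proteasome activator subunit Psme1, differed by -0.08 (limma adjusted p = 0.651). At B2m, WT 6 read 4.775, the lowest WT level (highest 4.91), and ADBR3 5 read 4.82, the highest ADBR3 level (lowest 4.46), and without these rats the difference was -0.255. Genes of class II antigen processing were split, with 3 lower and 5 higher of 8, a median of 0.01, and 0 at an unadjusted limma p under 0.05 in either direction. Regulators of MHC transcription were split as well, with 3 of 6 tested genes lower, of 9 listed, and a median of -0.02. Ciita, which encodes the class II transactivator, and Nfya were too dim to test, and Nlrc5 had no matching probe, so nothing is said of these genes.

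Of the interferon gamma pathway 8 of 11 tested genes were lower, with a median of -0.10. Irf1, a transcription factor that activates MHC genes, differed by -0.13 (limma adjusted p = 0.539), and Ifngr2, a receptor chain, by 0.25 (limma adjusted p = 0.478). The MHC-like genes without an RT1 name had 3 of 4 lower and a median of -0.06. In these lists 0 genes passed the adjusted threshold.

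Markers of leukocytes were mixed, and 0 of those tested passed adjustment. All 8 tested T and NK cell markers, of 13 listed, were lower, with a median difference of -0.42. At an unadjusted limma p under 0.05 there were 5, against 6.08% of all probes that were lower. These were Cd6 (-0.54, adjusted p = 0.332), Gzma (-0.49, adjusted p = 0.359), Cd8a (-0.78, adjusted p = 0.501), Cd3d (-0.35, adjusted p = 0.525) and Cd3g (-0.68, adjusted p = 0.542). The summed level of the 8 markers was 0.80 to 1.23 in WT and 0.42 to 0.83 in ADBR3 rats, and 0.83 in WT 6 and 0.65 in ADBR3 5. The other tested markers differed less: Nkg7, the brightest of the list (-0.11, limma adjusted p = 0.81), Cd8b (-0.175, limma adjusted p = 0.826) and Cd4 (-0.06, limma adjusted p = 0.858). Cd3e, Cd2, Cd5, Lck and Klrb1 were too dim to test. The 4 pan-leukocyte genes were all lower, with a median of -0.25, and their summed level was 2.84 to 3.03 in WT and 2.47 to 2.88 in ADBR3 rats. They were Ptprc, which encodes CD45 (-0.39, limma adjusted p = 0.477), Coro1a (-0.34, limma adjusted p = 0.48), Cd53 (-0.15, limma adjusted p = 0.657) and Laptm5, the brightest (-0.07, limma adjusted p = 0.812).

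Of 11 tested macrophage markers, 8 were lower and 3 higher, with a median of -0.12 and 0 at an unadjusted limma p under 0.05. Their summed level was 4.56 to 5.04 in WT and 4.50 to 4.95 in ADBR3 rats. Dendritic cell markers had 3 of 10 and B cell markers 1 of 6 bright enough to test, and the medians were 0.09 and -0.02. Markers of endothelial cells had a median of -0.03 (7 lower, 1 higher) and those of cardiomyocytes of -0.035 (6 lower, 2 higher). In bulk tissue fewer cells of a type and less RNA per cell cannot be told apart, and the part of these cell types in the RT1 differences was not tested.

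**Figure D5:**
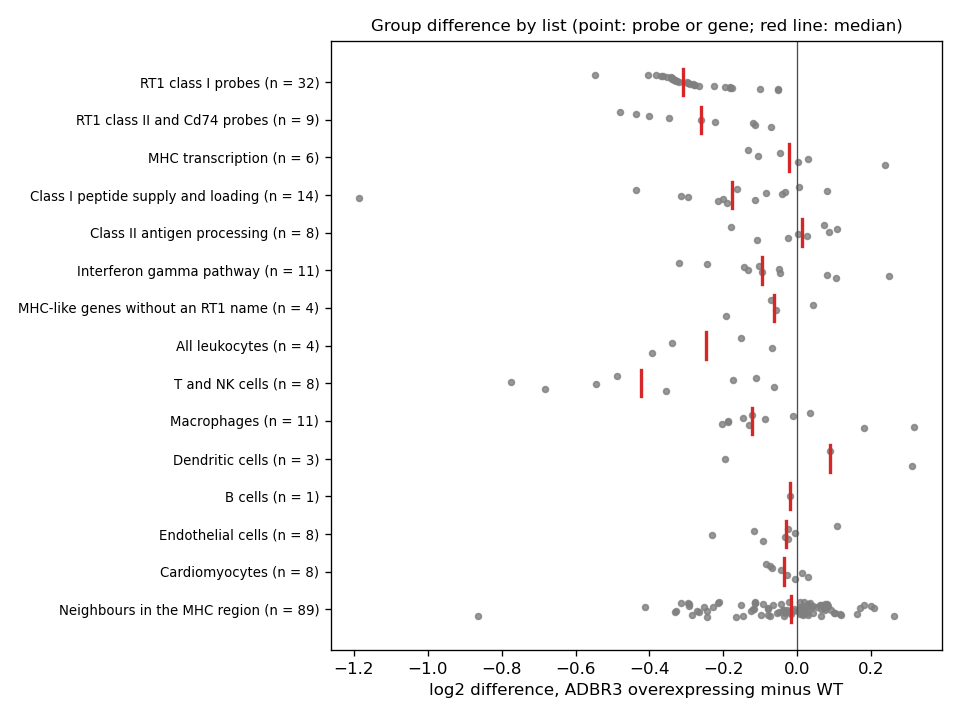
Group difference (x axis: log2, ADBR3 minus WT, 9 rats) of RT1 and Cd74 probes and of the genes of each list (rows, with the number tested). Points are probes or genes and red lines medians. The class I, class II, T and NK cell and all leukocytes rows lie wholly left of 0, as does the only B cell gene. The neighbours in the MHC region centre on 0.

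Genes that lie between RT1 genes on the chromosome were split in direction. Of 89 such genes with another name, ordered by the RefSeq gene table of assembly GRCr8, 47 were lower and 42 higher, with a median difference of -0.02. At an unadjusted limma p under 0.05, 6 were lower and 0 higher, against 6.08% of all probes that were lower, and 0 passed adjustment. Psmb9 and Psmb8, named above under class I peptide supply and loading, are among these 6. WT 6 and ADBR3 5 both lay outside the other 7 rats at 12 of the 89 genes (13.5%), and the gap was 0.297 at most. The shares given above were 56.1% of member probes and 5.32% of other probes.

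Promoters of 36 of the 42 RefSeq symbols matched to members were read over the 250 bases before the gene start, on both strands, in RefSeq sequence of build GRCr8. The core of the Y box, ATTGG, was present in 9 of 9 class II and 18 of 27 class I promoters (66.7%), against 34.0% of 33469 promoters. The core of the interferon-stimulated response element was present in 3 of 36 members (8.33%), namely RT1-N3, RT1-S2 and RT1-S3, against 3.41% of all. An X box core, AGNNACAG, followed on the same strand after 15 to 35 bases by ATTGG was found in 3 of 9 class II promoters (33.3%), those of RT1-Da, RT1-Bb and RT1-Ha, and in 0.427% of all promoters, where the second motif is by construction also counted under ATTGG. X and Y boxes are the elements through which the class II transactivator acts.

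The promoters of RT1-Da and RT1-Bb are shown because they hold this match and the genes had bright probes. RT1-Ha also held it but was too dim to test. The RT1-Db1 promoter had no such match. Between ADBR3 rats the SD was 0.443 and 0.617 at the RT1-Db1 probes, 0.397 at RT1-Da, and 0.784 and 0.332 at the RT1-Bb probes. The capitals mark the X box core and the Y box core. The printed promoters are chr20:4515165-4515414 (plus strand) and chr20:4604119-4604368 (minus strand) of GRCr8, written in the direction of the gene. A match is a description of the letters and not evidence of binding.
RT1-Da: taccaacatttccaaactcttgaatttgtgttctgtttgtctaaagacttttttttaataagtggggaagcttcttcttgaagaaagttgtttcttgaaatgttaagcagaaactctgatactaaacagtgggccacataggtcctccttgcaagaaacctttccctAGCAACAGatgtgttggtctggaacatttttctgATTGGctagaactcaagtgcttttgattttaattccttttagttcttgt
RT1-Bb: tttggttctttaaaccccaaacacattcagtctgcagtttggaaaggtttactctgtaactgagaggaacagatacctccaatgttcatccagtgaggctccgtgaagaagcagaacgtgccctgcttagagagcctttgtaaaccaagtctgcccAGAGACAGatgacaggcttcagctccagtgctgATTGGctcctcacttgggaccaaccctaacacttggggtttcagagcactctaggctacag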

How the data were processed

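Per the file headers, Agilent Feature Extraction 10.7.1.1 produced the authors' deposited scanner files, whose array design is 028279 on build rn4. A spot's processed signal there is an intensity after background subtraction, per the file headers. The authors also deposited natural log values for 20000 probes, scale and scaling unstated. Set against the median spot signal these had slopes of 0.991 to 1.048, correlations of 0.9992 to 0.9999 and column medians of 5.695 to 5.73. They were an alternative.

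Here the processed signal was scaled to each array's 75th percentile on the log2 scale and averaged over spots of a probe (outlier spots dropped where another remained), then over labelings of a rat. Background calls needed 0.5 of a probe's spots, and a probe was kept with such calls in 4 or more rats. Groups were compared per probe with lmFit and eBayes of limma 3.58.1 (R 4.3.3, with the data.table package, 1.17.8), with Benjamini-Hochberg adjustment at 0.05 over 17587 probes. The number of rats limits the precision. RefSeq genes were matched for 48 member probes by accession and for 6 by name. The fit was tested on simulated data. Python 3.11.15 with matplotlib 3.10.9, pandas 2.3.3 and numpy 2.4.6 drew the plots and read the sequences.

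The members, gene lists, motifs and naming rule were chosen with earlier results of these data known. Every rat's values were given for the brightest probe of Cd74, of the 4 loci with the highest level and of the 4 with the smallest p in each class, and, chosen after values were seen, for probes where WT 6 and ADBR3 5 lay apart by over 0.3. Alternatives covered scaling, background correction, the filter, batches, the replicate block and each rat left out. The labels state no pairing by heart number, and the main comparison used none. The correlations in the closing section cannot decide whether the numbers pair the samples.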

Additional observations from a re-analysis of the deposited data

Results flagged for a closer look

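Within-group outliers, by Dixon's ratio, were found in 20 of 46 groups of values examined (43.5%), where chance gives about 1 in 20. Of the 23 probes, 9 had been chosen because WT 6 and ADBR3 5 lay apart at them, and these gave 13 of the outliers, so that share is partly fixed by the choice. The 14 probes named by the rule gave 7 in 28 groups (25%), and the probes share rats and in part sequence. In 13 of them the rat was ADBR3 5. Its level lay above the other ADBR3 rats at RT1-A1 (3.42 at A_64_P032913 and 4.84 at A_64_P139202), RT1-CE13 (0.41), RT1-CE14 (2.37), RT1-CE15 (-1.70), RT1-CE16 (3.36), RT1-CE2 (3.5), RT1-CE3 (-0.23) and RT1-DMb (1.07). It lay below them at RT1-A2 (0.55), RT1-CE10 A_44_P389019 (-7.19), RT1-CE12 (-3.27) and RT1-CE5 A_64_P090474 (-7.32).

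In 6 of them the rat was WT 6, above the other WT rats at RT1-CE3 (0.00) and RT1-Bb A_44_P552452 (1.40) and below them at RT1-CE10 A_44_P389019 (-6.17), RT1-CE12 (-3.19), RT1-CE5 A_64_P090474 (-6.33) and RT1-N1 (-3.58). The last was ADBR3 1 at the dim RT1-DOb probe (-6.11).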

How the results depend on the processing

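The class medians moved by less than the SD between rats, 0.146 for class I and 0.374 for class II, under every alternative run. For class II that SD is larger than the median difference itself (-0.261), so a fall to 0 would also have stayed within it. With 1 rat left out the medians ranged from -0.355 to -0.255 for class I. For class II they ranged from -0.350 to -0.131 (-0.131 without ADBR3 1). The count of lower members ranged from 37 to 41 of 41 with 1 rat left out (37 without ADBR3 5) and was 37 with slide as a term, 36 for rats 1, 3 and 6 with or without the replicate block, and 53 of 57 with no filter. Of all probes, 52.1% (without WT 6) to 55.2% (without WT 3) were lower with 1 rat left out. That share was 53.2% with slide as a term, 52.5% for rats 1, 3 and 6 either way, and 65.4% with no filter. Members at an unadjusted limma p under 0.05 numbered 9 to 25 with 1 rat left out (25 without ADBR3 5), 31 without WT 6 and ADBR3 5, 21 for rats 1, 3 and 6 unpaired and 22 with the replicate block. Of all probes, 3.98% were lower at that p without WT 6 and ADBR3 5, and the shares for the other alternatives were not computed. Same-numbered rats correlated at 0.115, 0.0352 and 0.116. Rats of unlike number were not correlated, so these values cannot decide whether the numbers pair the samples. All probes past the adjusted threshold, 1 in the main comparison, numbered 2 with normexp and quantile normalization, 6 with a trended robust variance, 0 unpaired, with the block, with slide or without both rats, and 0 to 14 with 1 rat left out (14 without ADBR3 3). No member passed under any of these, and the smallest adjusted limma p was 0.0613.

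Differences of named probes kept direction and call in 502 recomputations and reversed in 20, all at probes with a gap at WT 6 and ADBR3 5. No member passed adjustment in any of them, so only direction could be compared. Alternatives that changed the filter or the variance alone used the same values, so direction was fixed there. For rats 1, 3 and 6, with or without the replicate block, the difference became 0.965 at RT1-CE10 A_44_P389019, 0.146 at RT1-CE12, 0.507 at RT1-CE5 A_64_P090474 and 0.141 at RT1-N1, and with slide as a term 0.575, 0.086, 0.273 and 0.161. With 1 rat left out they ranged from -1.261 to 0.540, -0.231 to 0.085, -1.386 to 0.190 and -0.604 to 0.014, and RT1-DMb from -0.177 to 0.035; the ends were without WT 6 and without ADBR3 5. RT1-CE10 and RT1-CE12 also reversed without WT 4 (0.093 and 0.005), and RT1-CE12 without WT 1 (0.026). The causes were not tested. The number of rats, and for dim probes the signal over background, limit these comparisons.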

Other observations

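Of the probes outside the RT1 names, 27 had WT 6 and ADBR3 5 together more than 0.3 away from the other 7 rats. They included both probes of Tlr3, a receptor for double-stranded RNA, with gaps of 0.818 and 0.741 and both rats lower, and Ifih1, an RNA sensor, with a gap of 0.371 and both rats lower. The probe named Rt1.aa, an older form of an MHC name, had both rats higher by 0.431. Other genes had gaps wider than that of Ifih1, among them Lurap1l (0.751), Camsap3 (0.749) and Mycn (0.57), with both rats lower, and Spdl1 (0.66), with both higher. The names given are a selection from the 27, and a shared function was not tested. These probes were picked after their values were seen, and no cause was tested.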
